A study of Mus musculus with 15 samples.

Results

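The genes described here build and carry the lipoproteins that the liver secretes. They are 9 apolipoproteins (Apoa1, Apoa2, Apoa4, Apoa5, Apob, Apoc1, Apoc3, Apoe and Apom) and Mttp, the lipid transfer protein that loads nascent particles. The 10 members were taken by symbol, each from the brightest transcript cluster that the array annotation gives to that symbol alone, and all 10 were found among 19938 genes. Expression in whole liver of male C57BL/6J mice was measured on 15 arrays in 5 groups of 3. The mice were put on their diets after weaning at week 8. The Ath+HF+BCAA 68w group received the atherogenic and high-fat (Ath+HF) diet with a 3% supplement of valine, leucine and isoleucine, the branched-chain amino acids (BCAA), for 60 weeks, and the Ath+HF 68w group the same diet without the supplement for 60 weeks. The Ath+HF+BCAA 38w, Ath+HF 38w and basal 38w groups received the supplemented Ath+HF diet, the Ath+HF diet and the basal diet for 30 weeks. The Ath+HF diet is a dietary model of steatohepatitis in mice that carry no engineered allele. No basal diet array of 68w was analysed here. Age, time on the diet and array batch thus cannot be told apart in any comparison of 68w with 38w. Against basal 38w, the 68w groups also differed in diet, which cannot be told apart from age, time and batch. The labels do not say that the arrays of a group came from separate mice, so p-values measure the spread between arrays, part of which may be technical, and 3 arrays a group limit the precision.

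Lipoproteins carry triglyceride and cholesterol through the blood inside a shell of phospholipid and apolipoproteins. In the hepatocyte, the microsomal triglyceride transfer protein lipidates the large, non-exchangeable Apob as it enters the endoplasmic reticulum, and the particle leaves as very low density lipoprotein (VLDL). The smaller exchangeable apolipoproteins set how fast plasma lipases and liver receptors handle the particle, and Apoa1 and Apoa2 are the main proteins of high density lipoprotein (HDL).

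Values are log2 signals as deposited, so that 1 log2 unit is a 2-fold difference in signal, and they compare 1 gene between groups but not 1 gene with another. Array medians lay between 6.91 and 7.16. Cell type markers set the 68w groups apart. On arrays labelled Ath+HF+BCAA 68w, set against arrays labelled Ath+HF 68w, 8 of 10 macrophage markers had a higher signal and 0 a lower one, with a median log2 difference of 2.37. The log2 of their summed signal was 14.21 to 14.53 on the Ath+HF+BCAA 68w arrays, 11.91 to 12.06 on the Ath+HF 68w arrays, 13.52 to 14.08 on the Ath+HF+BCAA 38w arrays, 13.81 to 14.10 on the Ath+HF 38w arrays and 12.57 to 12.66 on the basal 38w arrays. Of 8 stellate cell and fibroblast markers, 7 had a higher signal and 0 a lower one in the same comparison. The log2 of their summed signal was 13.35 to 13.44 on the Ath+HF+BCAA 68w arrays, 12.43 to 12.77 on the Ath+HF 68w arrays, 12.94 to 13.16 on the Ath+HF+BCAA 38w arrays, 13.01 to 13.13 on the Ath+HF 38w arrays and 12.55 to 12.80 on the basal 38w arrays. Among them, Pdgfrb was higher by 1.57, Col1a2 by 1.43 and Acta2 by 1.12. These directions are opposite to those that the study gives for fibrosis markers of these groups. Whether the labels of the 68w groups were exchanged was not tested, and no deposited value settles it. An exchange would turn the sign of every difference between the 68w groups and swap their differences from the groups of 38w. Every direction between the 68w groups thus rests on the labels, as can that of its change from 38w. A direction against a group of 38w would stay where both 68w groups lay on the same side of that group. Its size would still rest on the labels. The liver origin of the RNA was plain from 8 measured hepatocyte markers, whose summed log2 signal was 16.39 to 16.47 on the Ath+HF+BCAA 68w arrays, 16.52 to 16.57 on the Ath+HF 68w arrays and 16.43 to 16.57 on the arrays of 38w.

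**Figure D1:**
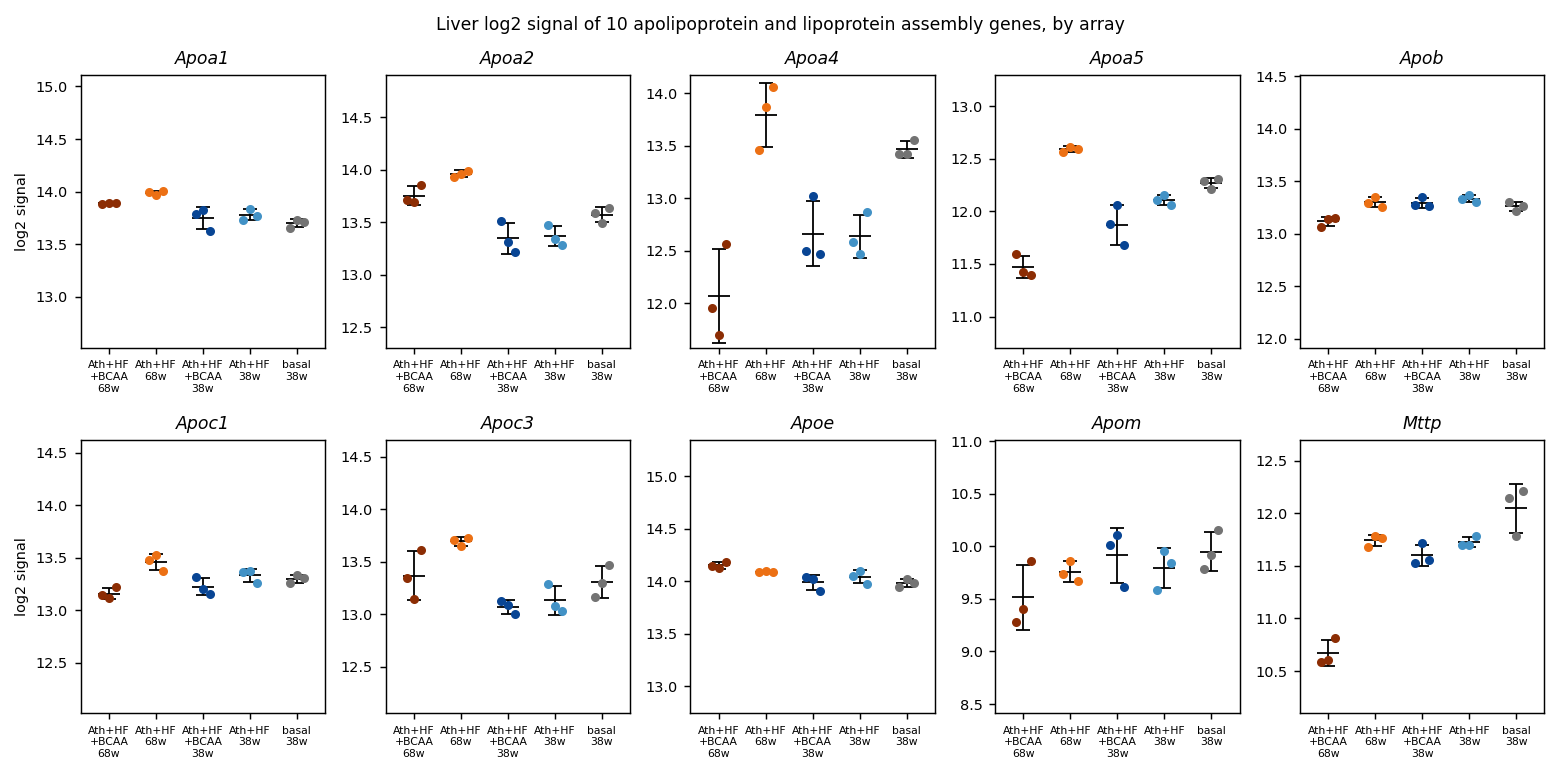
Log2 signal (vertical axis) of each of the 10 genes on the 15 arrays, by group (horizontal axis). Points are arrays, the wide tick is the group mean and the bar is 1 SD (n = 3), and every panel spans the same number of log2 units. Apoa4, Apoa5 and Mttp have their lowest means in the Ath+HF+BCAA 68w group, at 12.07, 11.47 and 10.67, while Apob and Apoe lie within narrow bands.

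The genes moved unequally. The range of the 5 group means was 1.72 log2 units for Apoa4, 1.38 for Mttp and 1.12 for Apoa5, against 0.62 for Apoc3, 0.61 for Apoa2, 0.43 for Apom, 0.30 for Apoc1, 0.29 for Apoa1, 0.22 for Apob and 0.17 for Apoe. Several members sat close to the brightest signal of the array, which was 14.31 to 14.48. Apoe was 0.26 to 0.44 log2 units below it on every array and Apoa1 0.47 to 0.70 below it. Apom, at 4.20 to 5.20 units below the brightest signal, and Mttp, at 2.14 to 3.89, had more room. Apoa4 varied more widely in this respect, at 0.42 to 2.74 units below the brightest signal, and its 2 nearest values were on Ath+HF 68w arrays, which enter its differences at 68w. Apoa2 was 0.48 to 1.15 units below it.

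The Ath+HF diet with and without BCAA was compared at each time point. At 68w, 5 of 10 members had a lower signal on arrays labelled Ath+HF+BCAA than on arrays labelled Ath+HF (Apoa4, Apoa5, Mttp, Apoc1 and Apoc3) and 0 had a higher one, at a Benjamini-Hochberg adjusted p under 0.05 in limma. Over all 19938 genes, 16.4% were called lower and 19.8% higher in that comparison. The members' median log2 difference was -0.27, and that of all genes was -0.09. In whole liver, fewer cells of a type and less RNA per cell cannot be told apart. The macrophage and stellate cell markers moved in the same comparison by the values given above. Also higher were 5 of 7 endothelial, 4 of 4 cholangiocyte and 5 of 7 T, B and NK cell markers, with 0 lower in each list. Of 8 hepatocyte markers 0 were higher and 2 lower, and of 5 enterocyte markers 0 and 1. The part of all these markers in any member's difference was not tested. At 38w, 0 of 10 members were called, in a comparison in which 0% of all genes passed the adjusted threshold and 7.66% had an unadjusted p under 0.05 in either direction. The methods' analysis of variance called 201 genes there, with a Bonferroni correction over 10 pairs of groups and none over genes. The difference between these differences (the 68w value minus the 38w value) was called below 0 for 3 members, Apoa4, Apoa5 and Mttp, against 7.67% of all genes called below 0 and 12.9% above 0.

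**Figure D2:**
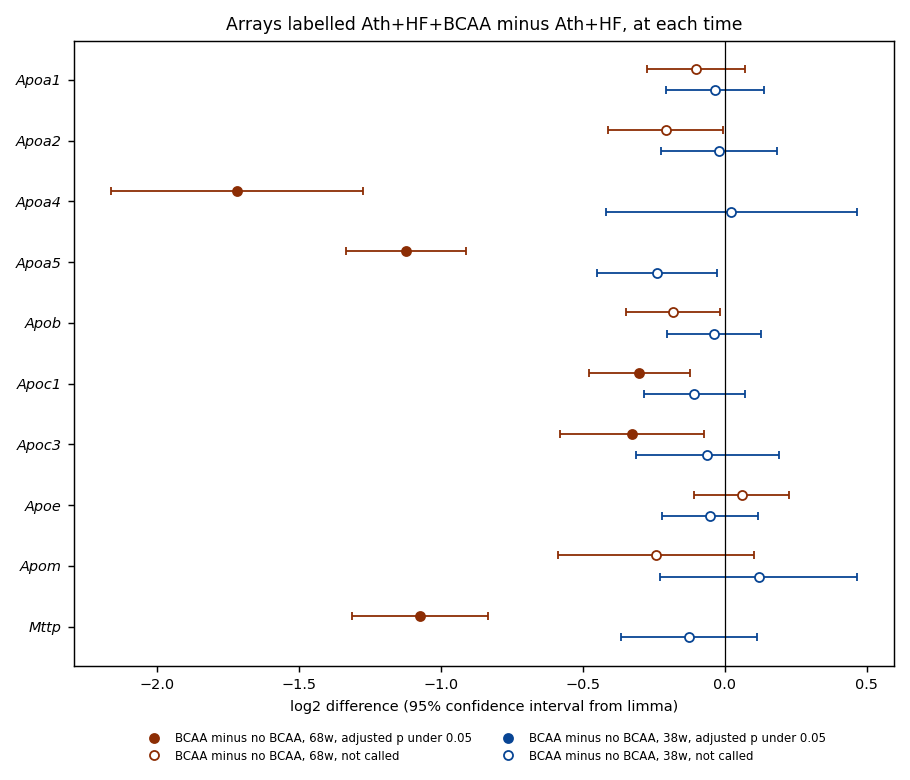
Log2 difference between arrays labelled Ath+HF+BCAA and arrays labelled Ath+HF (horizontal axis) for each gene, at 68w and at 38w, with 95% confidence intervals from limma. Filled points passed an adjusted p of 0.05. At 68w the points of Apoa4, Apoa5 and Mttp lie at -1.72, -1.12 and -1.07, and every 38w point is open.

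Mttp encodes the large subunit of the microsomal triglyceride transfer protein, without which Apob is degraded rather than secreted. Its log2 signal was 10.59, 10.61 and 10.81 on the Ath+HF+BCAA 68w arrays, against 11.68, 11.78 and 11.77 on the Ath+HF 68w arrays. At 38w it was 11.53, 11.72 and 11.56 on the Ath+HF+BCAA arrays, 11.70, 11.69 and 11.78 on the Ath+HF arrays and 12.15, 11.78 and 12.21 on the basal arrays. All 3 arrays of the Ath+HF+BCAA 68w group lay below every other array of the study. Among the other groups, neighbours in the order of the means overlapped, while every Ath+HF+BCAA 38w array lay below every basal array. Mttp was 2.10-fold lower in the Ath+HF+BCAA 68w group than in the Ath+HF 68w group (log2 difference -1.07, SE 0.11, limma adjusted p = 2.19e-06). At 38w the BCAA difference was -0.13 (95% interval -0.36 to 0.11), and the 68w difference minus the 38w difference was -0.95 (SE 0.16, adjusted p = 0.000494). Of 8 hepatocyte markers, 0 were higher and 2 lower (Ttr, -0.29, and Cyp2e1, -0.39) at 68w, with a median difference of -0.05. Their part in the Mttp difference was not tested.

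Apob is the structural backbone of VLDL, with 1 molecule in each particle. It read 13.06, 13.14 and 13.15 on the Ath+HF+BCAA 68w arrays, against 13.29, 13.35 and 13.26 on the Ath+HF 68w arrays. On the arrays of 38w it was 13.27, 13.35 and 13.27 on the Ath+HF+BCAA arrays, 13.33, 13.37 and 13.30 on the Ath+HF arrays and 13.30, 13.22 and 13.27 on the basal arrays. The Ath+HF+BCAA 68w arrays were again the 3 lowest, but the step was small. The difference from the Ath+HF 68w group was -0.18 (95% interval -0.35 to -0.02, adjusted p = 0.0768), which did not pass the threshold. The arrays measured the transcript, and neither its editing nor the secreted protein was measured here.

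Apoa4 travels on triglyceride-rich particles and on HDL and is made by the intestine as well as by the mouse liver. Its log2 signal was 11.95, 11.70 and 12.57 on the Ath+HF+BCAA 68w arrays, against 13.46, 13.87 and 14.05 on the Ath+HF 68w arrays. At 38w it was 12.50, 13.02 and 12.47 on the Ath+HF+BCAA arrays, 12.59, 12.47 and 12.87 on the Ath+HF arrays and 13.42, 13.42 and 13.56 on the basal arrays. The Ath+HF 68w and basal arrays were high, the other arrays of 38w intermediate and overlapping, and the Ath+HF+BCAA 68w arrays lowest except for replicate 3, which reached the 38w range. Apoa4 showed the largest BCAA difference among the members at 68w, 3.29-fold lower in the Ath+HF+BCAA group (log2 difference -1.72, SE 0.21, adjusted p = 9.47e-06), rank 92 from the most negative of 19938 genes. At 38w the difference was 0.02 (95% interval -0.42 to 0.47), and the 68w difference minus the 38w difference was -1.74 (SE 0.29, adjusted p = 0.000523). Of 5 enterocyte markers, 4 had group means between 4.80 and 6.63 in both 68w groups. Fabp2, an intestinal fatty acid binding protein, averaged 9.08 in the Ath+HF+BCAA 68w group and 11.16 in the Ath+HF 68w group. The 5 markers' summed log2 signal was 9.59 to 9.95 on the Ath+HF+BCAA 68w arrays and 11.06 to 11.56 on the Ath+HF 68w arrays. It was 11.61 to 11.92 on Ath+HF+BCAA, 11.88 to 12.04 on Ath+HF and 11.72 to 12.02 on basal arrays of 38w. The part of the Fabp2 difference of -2.09 in that of Apoa4 was not tested.

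Apoa5 helps lipoprotein lipase clear triglyceride-rich particles and is made almost only by the liver. It read 11.59, 11.43 and 11.39 on the Ath+HF+BCAA 68w arrays, against 12.56, 12.61 and 12.60 on the Ath+HF 68w arrays. The 38w values were 11.88, 12.06 and 11.68 on the Ath+HF+BCAA arrays, 12.11, 12.16 and 12.06 on the Ath+HF arrays and 12.29, 12.21 and 12.31 on the basal arrays. No 2 groups that were neighbours in the order of the means overlapped. The margin was narrow between the lowest Ath+HF 38w array (12.065) and the highest Ath+HF+BCAA 38w array (12.061). The order was Ath+HF 68w, basal 38w, Ath+HF 38w, Ath+HF+BCAA 38w and Ath+HF+BCAA 68w from the highest mean to the lowest. Apoa5 was 2.18-fold lower in the Ath+HF+BCAA 68w group than in the Ath+HF 68w group (log2 difference -1.12, SE 0.10, adjusted p = 3.86e-07). At 38w the BCAA difference was -0.24 (95% interval -0.45 to -0.03, adjusted p = 0.604), and the 68w difference minus the 38w difference was -0.88 (SE 0.14, adjusted p = 0.000310).

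The promoters of the 3 genes that moved most are shown, with that of Apob, which moved little, so that their letters can be set side by side. Each window holds 250 bases before and 50 bases after a transcript start of the RefSeq promoter table (build GRCm38.p6), the upstream one where the table gives several, and is written 5′ to 3′ on the gene's strand. Capitals mark the letters TATAAA (the TATA box) and CAAAG (a core of sites bound by hepatocyte nuclear factor 4), each searched on both strands, so that CTTTG is CAAAG on the other strand, and no capitals of these windows overlap. The windows are chr9:46240594-46240893 on the plus strand for Apoa4, chr9:46268358-46268657 on the plus strand for Apoa5, chr3:138143369-138143668 on the minus strand for Mttp and chr12:7977427-7977726 on the plus strand for Apob, whose annotated gene span begins upstream of the start used here.
Apoa4: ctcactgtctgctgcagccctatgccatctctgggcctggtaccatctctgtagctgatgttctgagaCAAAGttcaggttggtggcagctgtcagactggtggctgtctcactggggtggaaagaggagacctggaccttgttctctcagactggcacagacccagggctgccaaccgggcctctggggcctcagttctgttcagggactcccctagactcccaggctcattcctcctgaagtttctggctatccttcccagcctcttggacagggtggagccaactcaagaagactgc
Apoa5: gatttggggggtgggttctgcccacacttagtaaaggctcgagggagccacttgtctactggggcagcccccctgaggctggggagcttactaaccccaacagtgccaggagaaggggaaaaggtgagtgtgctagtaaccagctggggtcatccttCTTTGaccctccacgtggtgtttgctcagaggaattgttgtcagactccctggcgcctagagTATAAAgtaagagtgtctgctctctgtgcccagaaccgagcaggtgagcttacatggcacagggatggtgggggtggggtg
Mttp: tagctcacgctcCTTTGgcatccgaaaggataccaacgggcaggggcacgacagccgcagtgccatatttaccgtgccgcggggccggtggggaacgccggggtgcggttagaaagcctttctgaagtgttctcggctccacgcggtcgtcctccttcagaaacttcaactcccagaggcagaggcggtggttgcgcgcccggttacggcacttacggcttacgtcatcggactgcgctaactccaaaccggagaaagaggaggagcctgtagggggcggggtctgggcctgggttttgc
Apob: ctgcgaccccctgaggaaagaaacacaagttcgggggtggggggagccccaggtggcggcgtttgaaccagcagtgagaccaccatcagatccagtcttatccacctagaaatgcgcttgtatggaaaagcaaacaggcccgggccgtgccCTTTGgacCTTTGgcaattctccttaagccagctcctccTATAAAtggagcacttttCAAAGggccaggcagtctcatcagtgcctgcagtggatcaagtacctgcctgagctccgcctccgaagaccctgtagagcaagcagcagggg
The Apoa4 window held CAAAG 182 bases before the start and no TATAAA. In Apoa5, CTTTG lay 93 and TATAAA 31 bases before the start. The Mttp window held CTTTG 238 bases before the start, and Apob held CTTTG 99 and 91, TATAAA 60 and CAAAG 42 bases before the start. Promoter windows were given for 8 of 10 members, Apoc1 and Apoc3 having none. Counting a member if any of its windows held the letters, CAAAG was in 5 of these 8 and TATAAA in 4. Of 32851 promoter windows of that length, each counted singly, 53.9% and 13.6% held them, so counts and shares are not in the same unit. Apoa2 and Apoe held TATAAA only in a window of a downstream start. AGGTCA (a nuclear receptor half-site, in 16.3% of promoters) and CCAAT (in 37.4%) were each in 1 of the 8, Apoa2.

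Apoc3 slows lipolysis and remnant uptake. It read 13.35, 13.14 and 13.61 on the Ath+HF+BCAA 68w arrays, against 13.71, 13.65 and 13.72 on the Ath+HF 68w arrays. The values at 38w were 13.13, 13.09 and 13.00 on the Ath+HF+BCAA arrays, 13.29, 13.08 and 13.03 on the Ath+HF arrays and 13.17, 13.30 and 13.47 on the basal arrays. The Ath+HF 68w arrays were above all others, by a narrow margin over replicate 3 of the Ath+HF+BCAA 68w group. The BCAA difference at 68w was -0.33 (SE 0.12, adjusted p = 0.0438). That call was lost without any single Ath+HF 68w array and without replicate 1 or 2 of the Ath+HF+BCAA 68w group (difference -0.45 to -0.21 and adjusted p up to 0.216 over the 6 arrays left out in turn), and also with array medians set equal, with quantile normalization and with the methods' analysis of variance.

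Apoc1, an inhibitor of lipase action and of remnant uptake, read 13.14, 13.12 and 13.22 on the Ath+HF+BCAA 68w arrays, against 13.48, 13.53 and 13.37 on the Ath+HF 68w arrays. On the arrays of 38w it was 13.32, 13.21 and 13.16 on the Ath+HF+BCAA arrays, 13.37, 13.37 and 13.26 on the Ath+HF arrays and 13.26, 13.34 and 13.31 on the basal arrays. The 68w groups did not overlap, and the groups of 38w lay between their means. The BCAA difference at 68w was -0.30 (SE 0.08, adjusted p = 0.0109), and -0.19 (adjusted p = 0.0859) after quantile normalization. For Apoc1 and Apoc3 the change of the BCAA difference between the times was not called (adjusted p = 0.277 and 0.298).

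Apoa1 is the defining protein of HDL. Its log2 signal was 13.88, 13.89 and 13.89 on the Ath+HF+BCAA 68w arrays, against 13.99, 13.97 and 14.00 on the Ath+HF 68w arrays. At 38w it was 13.78, 13.83 and 13.63 on the Ath+HF+BCAA arrays, 13.73, 13.83 and 13.77 on the Ath+HF arrays and 13.65, 13.73 and 13.71 on the basal arrays. On the deposited scale, arrays of 68w were above all those of 38w, and the BCAA difference at 68w was -0.10 (95% interval -0.28 to 0.07). Apoa2, the other main protein of HDL, read 13.71, 13.69 and 13.85 on the Ath+HF+BCAA 68w arrays, against 13.93, 13.96 and 13.99 on the Ath+HF 68w arrays. The 38w values were 13.51, 13.32 and 13.22 on the Ath+HF+BCAA arrays, 13.47, 13.34 and 13.29 on the Ath+HF arrays and 13.59, 13.49 and 13.63 on the basal arrays. The 68w arrays were again the highest on the deposited scale and did not overlap between the diets, with a BCAA difference of -0.21 (adjusted p = 0.10).

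Apoe, the ligand of remnant receptors, is made by macrophages as well as hepatocytes. The log2 signal was 14.14, 14.13 and 14.19 on the Ath+HF+BCAA 68w arrays, against 14.09, 14.10 and 14.09 on the Ath+HF 68w arrays. At 38w it was 14.04, 14.02 and 13.91 on the Ath+HF+BCAA arrays, 14.05, 14.10 and 13.98 on the Ath+HF arrays and 13.95, 14.02 and 13.98 on the basal arrays. It was the only member whose mean was higher in the Ath+HF+BCAA 68w group than in the Ath+HF 68w group, by 0.06 (95% interval -0.11 to 0.23), with no overlap of the 68w arrays, and it was not called in any comparison. That difference was 0.06 with array medians set equal and 0.07 after quantile normalization. Apom carries sphingosine 1-phosphate on HDL, and read 9.28, 9.41 and 9.86 on the Ath+HF+BCAA 68w arrays, against 9.74, 9.86 and 9.67 on the Ath+HF 68w arrays. At 38w it was 10.02, 10.11 and 9.62 on the Ath+HF+BCAA arrays, 9.58, 9.96 and 9.84 on the Ath+HF arrays and 9.78, 9.92 and 10.15 on the basal arrays. All neighbouring groups overlapped, and the spread within groups (pooled SD 0.22) was second only to that of Apoa4 (0.30).

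Next, each Ath+HF diet was followed over time. In the Ath+HF group, 4 of 10 members were higher at 68w than at 38w (Apoa2, Apoa4, Apoa5 and Apoc3) and 0 were lower, while 17.6% of all genes were called higher and 20.0% lower. With array medians set equal, 8.31% of all genes were higher and 26.3% lower, and the same 4 members were called. Apoa4 was 2.22-fold higher (log2 difference 1.15, SE 0.21, adjusted p = 0.000663), rank 52 from the most positive of 19938 genes. Apoa2 was higher by 0.59 (adjusted p = 0.000292), Apoc3 by 0.56 (adjusted p = 0.00207) and Apoa5 by 0.48 (adjusted p = 0.00175). In all 4 genes every Ath+HF 68w array was above every Ath+HF 38w array. No share over all genes is given here for this or any other statement on overlap of arrays. In this comparison 0 of 10 macrophage markers were higher and 9 lower, with a median difference of -1.74, and 0 of 8 stellate cell markers were higher and 5 lower. The median of all genes was 0.05, and -0.06 with array medians set equal.

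In the Ath+HF+BCAA group, 1 of 10 members was higher at 68w than at 38w and 3 were lower, against 20.5% and 18.3% of all genes. With array medians set equal, the shares of all genes were 11.4% and 28.4%, and these 3 stayed called lower. Members called only at that scaling are not counted here. Mttp was lower (log2 difference -0.93, SE 0.11, adjusted p = 1.54e-05), as was Apoa5 (-0.40, SE 0.10, adjusted p = 0.00460), with no overlap of the arrays. Apoa4 was lower as well (-0.59, adjusted p = 0.0350), with overlap. The Apoa4 call was lost without replicate 2 of the Ath+HF+BCAA 38w group and without replicate 1 or 2 of the Ath+HF+BCAA 68w group (difference -0.84 to -0.40, adjusted p up to 0.175), after quantile normalization, with the methods' analysis of variance and when these groups were fitted alone. Apoa2 was higher by 0.40 (adjusted p = 0.00370), and by 0.25 (adjusted p = 0.0559) with array medians set equal. Of the 10 macrophage markers, 6 were higher and 0 lower in this comparison, and of the 8 stellate cell markers 5 were higher and 1 lower. The median of all genes was 0.03, and -0.12 with array medians set equal.

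**Figure D3:**
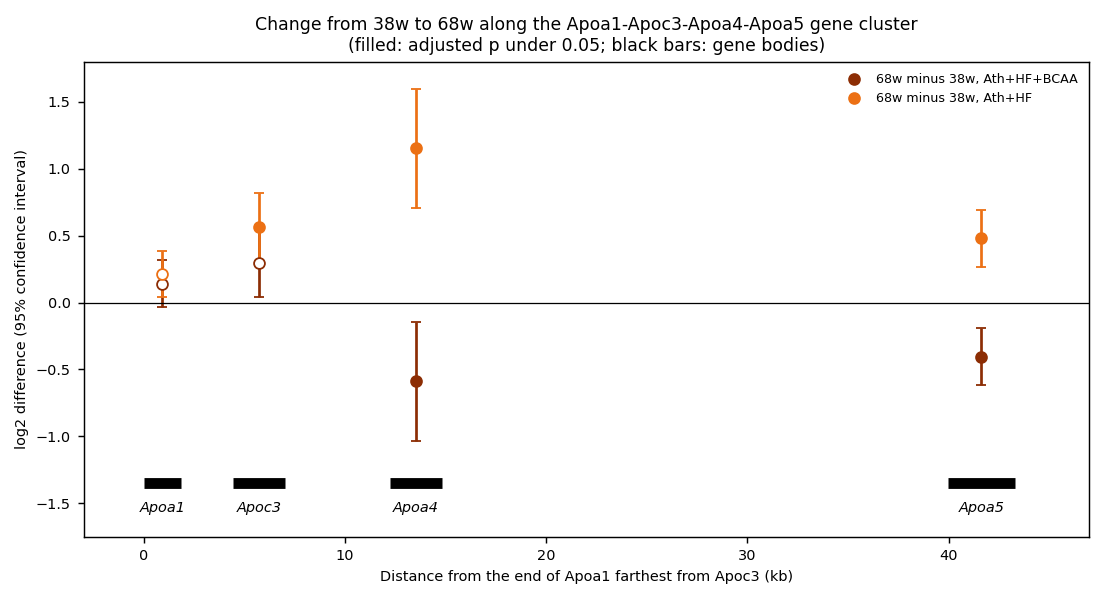
Log2 difference between 68w and 38w (vertical axis, 95% confidence intervals from limma) for the 4 neighbouring genes on chromosome 9, placed by distance along the chromosome (horizontal axis, kb) with gene bodies as black bars. Apoa4 and Apoa5 lie at -0.59 and -0.40 in the Ath+HF+BCAA group and at 1.15 and 0.48 in the Ath+HF group, while Apoa1 and Apoc3 lie above 0 in both, the value of Apoa1 in the Ath+HF+BCAA group turning to -0.01 with array medians set equal.

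Apoa1, Apoc3, Apoa4 and Apoa5 are neighbours in that order on chromosome 9, within 43292 bp (GRCm38.p6 chr9:46228630-46271921), with gaps of 2580, 5207 and 25149 bp. Along this cluster, the differences between 68w and 38w in the Ath+HF+BCAA group were 0.14 (adjusted p = 0.182, and -0.01 with array medians set equal) for Apoa1, 0.30 (adjusted p = 0.0597) for Apoc3, -0.59 for Apoa4 and -0.40 for Apoa5. In the Ath+HF group the values were 0.21 (adjusted p = 0.0528), 0.56, 1.15 and 0.48 in the same gene order. Apoc1 (chr7:19689480-19692659) and Apoe (chr7:19696244-19701310) are neighbours with a gap of 3584 bp, and their BCAA differences at 68w were -0.30 and 0.06. Apoa2 (chr1:171221564-171226379), Apob (chr12:7977629-8016839), Apom (chr17:35128997-35131801) and Mttp (chr3:138089855-138143418) have no other member on their chromosome.

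Finally, each group was set against the basal 38w group, whose arrays all 4 comparisons shared. On arrays labelled Ath+HF+BCAA 68w, 0 of 10 members were higher and 4 lower, against 22.9% and 21.8% of all genes. With array medians set equal, the shares of all genes were 13.9% and 35.4%, and these 4 stayed called lower. Members called only at that scaling are not counted here. The lower genes were Apoa4 (-1.39, SE 0.21, adjusted p = 5.73e-05), Mttp (-1.38, SE 0.11, adjusted p = 1.63e-07), Apoa5 (-0.80, SE 0.10, adjusted p = 9.39e-06) and Apom (-0.43, SE 0.16, adjusted p = 0.0406). The arrays of Apoa4, Mttp and Apoa5 did not overlap with the basal ones, and those of Apom did. The Apom call was lost without replicate 2 or 3 of the basal 38w group and without replicate 1 or 2 of the Ath+HF+BCAA 68w group (difference -0.61 to -0.32, adjusted p up to 0.180), after quantile normalization, with the methods' analysis of variance and when these groups were fitted alone. Of the 10 macrophage markers, 8 were higher and 0 lower, and of the 8 stellate cell markers 7 were higher and 1 lower. The median of all genes was 0.01, and -0.18 with array medians set equal, under which the differences of Apoa2, Apoc3 and Apoe (0.18, 0.06 and 0.17, none called) turned below 0.

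On arrays labelled Ath+HF 68w, 4 of 10 members were higher than in the basal 38w group and 1 was lower, against 19.0% and 19.1% of all genes. Apoa2 was higher by 0.39 (adjusted p = 0.00540), Apoc3 by 0.38 (adjusted p = 0.0200), Apoa5 by 0.32 (adjusted p = 0.0192) and Apoa1 by 0.29 (adjusted p = 0.0111), and Mttp was lower (-0.30, adjusted p = 0.0443). The 4 higher calls depended on how the arrays were scaled. With array medians set equal, 0 members were called higher and 1 lower (5.97% and 30.8% of all genes), and after quantile normalization also 0 and 1 (11.1% and 20.0% of all genes), with the 4 differences still above 0. The Apoa5 call was lost without replicate 2 of either group (adjusted p up to 0.0568), the Apoc3 call without basal 38w replicate 1 or Ath+HF 68w replicate 3 (adjusted p up to 0.0825), and the Mttp call without any Ath+HF 68w array or without basal 38w replicate 1 or 3 (adjusted p up to 0.168). Apoa4, at 0.33 (95% interval -0.12 to 0.77), was not called. Of the 10 macrophage markers, 1 was higher and 4 lower, and of the 8 stellate cell markers 0 were higher and 1 lower. The median of all genes was 0.05, and -0.14 with array medians set equal.

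**Figure D4:**
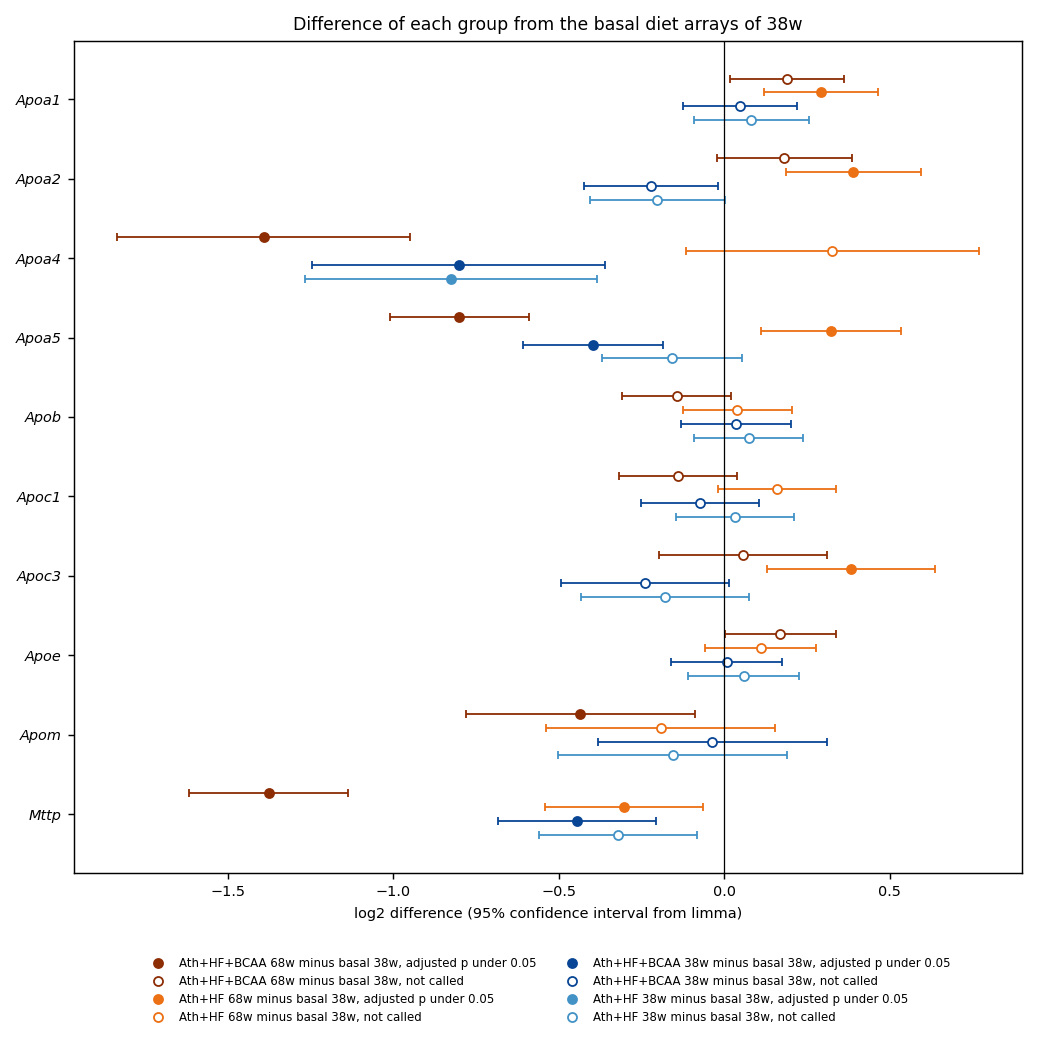
Log2 difference of each diet group from the basal 38w arrays (horizontal axis, 95% confidence intervals from limma) for each gene. Filled points passed an adjusted p of 0.05. The Ath+HF+BCAA 68w points of Apoa4, Apoa5 and Mttp lie at -1.39, -0.80 and -1.38, and the Ath+HF 68w points of Apoa1, Apoa2, Apoa5 and Apoc3 lie at 0.29, 0.39, 0.32 and 0.38.

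In the Ath+HF+BCAA 38w group, 0 of 10 members were higher than in the basal 38w group and 3 were lower, against 3.67% and 1.82% of all genes. The lower genes were Apoa4 (-0.80, SE 0.21, adjusted p = 0.0344), Mttp (-0.45, SE 0.11, adjusted p = 0.0301) and Apoa5 (-0.40, SE 0.10, adjusted p = 0.0295), and every array of the group was below every basal array for each gene. In the Ath+HF 38w group, 0 members were higher and 1 was lower, against 3.05% and 1.18% of all genes (2.14% and 2.19% with array medians set equal, 2.07% and 1.47% after quantile normalization). That gene was Apoa4, at -0.83 (SE 0.21, adjusted p = 0.0353), a call that stayed at both other scalings. Mttp was at -0.32 (adjusted p = 0.136) and Apoa5 at -0.16 (adjusted p = 0.449). Of 19938 genes, Apoa4 held rank 95 from the most negative in the Ath+HF+BCAA 38w group and rank 71 in the Ath+HF 38w group. These calls lay near the threshold. For Apoa4 they were lost without any basal array and without replicate 1 or 3 of the Ath+HF+BCAA 38w group (adjusted p up to 0.120), or replicate 1 or 2 of the Ath+HF 38w group (adjusted p up to 0.137). For Mttp and Apoa5 in the Ath+HF+BCAA 38w group they were lost without basal 38w replicate 1 or 3 and without replicate 1 or 3 of that group (adjusted p up to 0.115 for each gene), and all 3 were lost when these groups were fitted alone. Of the 10 macrophage markers, 7 were higher and 0 lower in each group, and of the 8 stellate cell markers 4 were higher and 0 lower in each.

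Other genes of lipoprotein metabolism were read from the same fit, in lists of particle proteins, assembly and secretion, remodeling in plasma, receptors, and transcription factors, of which 29 of 36 were measured here. At 68w, the signal of 7 of 29 was higher and that of 12 lower on arrays labelled Ath+HF+BCAA than on arrays labelled Ath+HF, with a median difference of -0.13, while 19.8% of all genes were called higher and 16.4% lower. Among particle proteins, 3 of 4 were lower, among them Apoc4 (-1.05), a minor protein of VLDL, and Apoh (-0.39). Among genes of assembly and secretion, 2 of 10 were higher and 3 lower. Sort1, a sorting receptor that binds Apob, was higher by 1.64, and Apobec1, the enzyme that edits the Apob transcript, by 1.24. Sar1b, a GTPase of the vesicles that carry particles out of the endoplasmic reticulum, was lower (-0.80), as was Cideb, which promotes VLDL lipidation (-0.55). Sort1 read 8.85, 8.97 and 8.94 on the Ath+HF+BCAA 68w arrays, against 7.18, 7.09 and 7.56 on the Ath+HF 68w arrays. Sar1b read 10.84, 11.01 and 11.18 on the Ath+HF+BCAA 68w arrays, against 11.82, 11.85 and 11.75 on the Ath+HF 68w arrays. Neither gene overlapped between the groups. The part of the macrophage markers given above in the difference of any gene of these lists was not tested.

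Among genes that remodel particles in plasma, 3 of 6 were higher and 2 lower. Lpl, the lipoprotein lipase that adult hepatocytes make little of and macrophages make much of, was higher by 3.69 (SE 0.17, adjusted p = 1.11e-09). It read 11.39, 11.43 and 11.16 on the Ath+HF+BCAA 68w arrays, against 7.57, 7.50 and 7.85 on the Ath+HF 68w arrays, and moved with the macrophage markers given above, whose part in it was not tested. Abca1, the exporter that lipidates Apoa1, was higher by 1.01, while Lcat, which esterifies cholesterol on HDL, was lower (-0.75), as was Angptl4, a lipase inhibitor (-1.45). Among receptors, 2 of 4 were higher (the HDL receptor Scarb1, 0.44, and the remnant receptor Lrp1, 0.37) and 1 was lower (Vldlr, -0.60). Among transcription factors, 0 of 5 were higher and 3 lower, with Creb3l3, an activator of Apoa4 in mouse liver, at -0.80 and Ppara, the fatty acid sensor, at -0.55. Every call of this paragraph and the last stayed with array medians set equal, and 1 other, Hnf4a, was lost after quantile normalization. At 38w, 0 of 29 were called between the diets by limma, and the 68w difference minus the 38w difference was called above 0 for 7 and below 0 for 6, beside 12.9% and 7.67% of all genes.

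**Figure D5:**
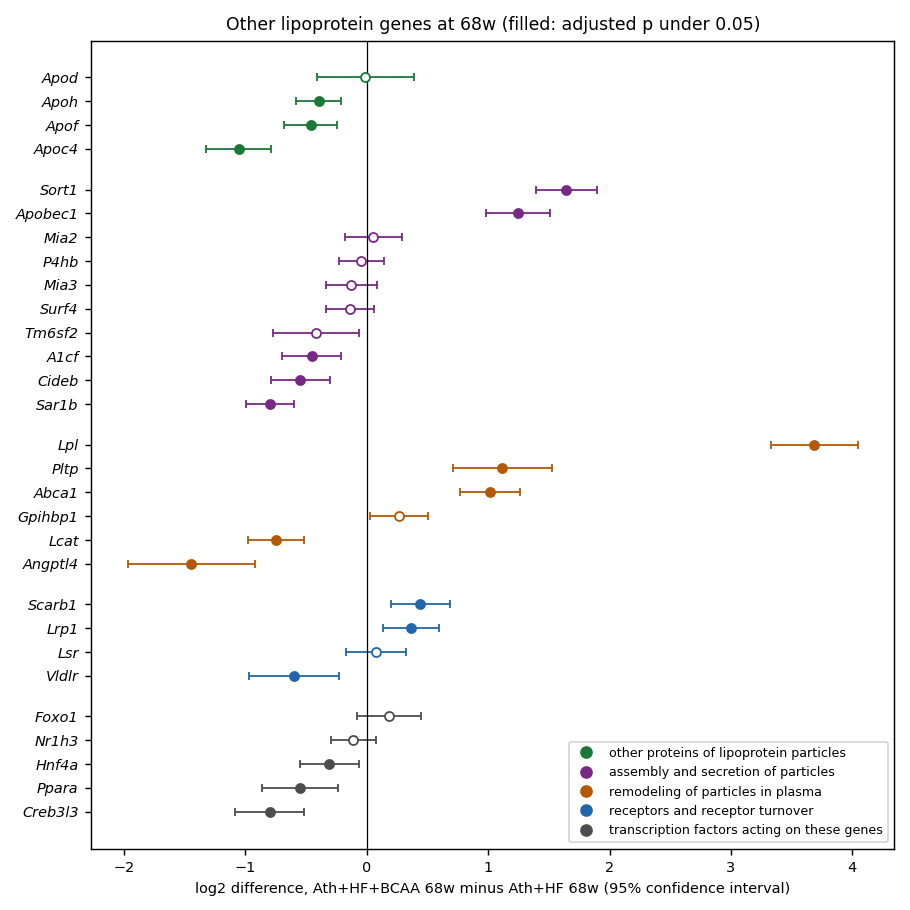
Log2 difference between arrays labelled Ath+HF+BCAA 68w and Ath+HF 68w (horizontal axis, 95% confidence intervals from limma) for 29 other lipoprotein genes, coloured by list. Filled points passed an adjusted p of 0.05. Lpl stands farthest to the right at 3.69 and Angptl4 farthest to the left at -1.45.

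Against the basal 38w group, 10 of 29 of these genes were higher and 12 lower in the Ath+HF+BCAA 68w group (7 and 14 with array medians set equal), beside 22.9% and 21.8% of all genes. For the Ath+HF 68w group 5 were higher and 4 lower (1 and 8 with array medians set equal), beside 19.0% and 19.1% of all genes. Sar1b was lower in both, at -1.38 in the Ath+HF+BCAA 68w group and -0.58 in the Ath+HF 68w group, and P4hb, the small subunit of the Mttp complex, was also lower in both, at -0.43 and -0.38. At 38w, 4 in the Ath+HF+BCAA group were higher and 2 lower (3 and 3 with array medians set equal), beside 3.67% and 1.82% of all genes. For the Ath+HF 38w group 5 were higher and 0 lower (3 and 1 with array medians set equal), beside 3.05% and 1.18% of all genes. Lpl was higher by 3.01 in the Ath+HF+BCAA 38w group and 2.80 in the Ath+HF 38w group, and Apobec1 by 0.70 and 0.61 in the same order. Over time, 8 of 29 were higher and 7 lower at 68w in the Ath+HF+BCAA group (5 and 11 with array medians set equal), beside 20.5% and 18.3% of all genes. Without BCAA, 8 were higher and 7 lower at 68w (3 and 9 with array medians set equal), beside 17.6% and 20.0% of all genes, with Lpl (-3.10) and Sort1 (-1.38) among the lower ones.

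The levels of the members across the 15 arrays were compared with each other and with all other genes, as a description in which the points share their groups. Apoa2 and Apoc3 ran most closely together among the members (Pearson's r 0.917 over 15 arrays, 0.674 within groups), followed by Apoa4 and Apoa5 (0.881, and 0.211 within groups). Mttp and Apoe ran opposite (-0.680, and -0.120 within groups). For the 3 members with the widest range of group means, the non-members with the most similar profile were Phb2 (0.969), Pex14 (0.953) and Amigo2 (0.952) for Apoa4, Acot1 (0.975), Tgoln1 (0.973) and Klhdc7b (0.962) for Apoa5, and Abcd3 (0.987), Hadha (0.982) and Gpd2 (0.981) for Mttp.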

How the data were processed

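Liver RNA of 15 arrays (GeneChip Mouse Gene 1.0 ST, 5 groups of 3) was analysed. The authors deposited log2 expression values made with RMA in Affymetrix Expression Console, per the labels, with versions not given in the sources used here. Of 35556 transcript clusters, 21789 had 1 gene symbol in the platform annotation, 1621 had several and 12146 had none listed. The brightest single-symbol cluster stood for each of 19938 genes, and each member had 1 such cluster. Groups were taken from the sample titles and compared in 1 limma fit (limma 3.58.1, R 4.3.3) over all 15 arrays, with Benjamini-Hochberg adjustment over all genes and a call at an adjusted p under 0.05. The script was tested on simulated data. Alternatives were array medians set equal, quantile normalization, mean of clusters, a dim-gene filter, a trended robust variance, the compared groups alone, a replicate block, the methods' analysis of variance with Bonferroni correction over 10 pairs, and each array left out in turn. All 10 members were described, with up to 2 called genes per direction of each pathway list (smallest p) and 3 similar profiles for each of the 3 widest-ranging members. The members and lists were chosen with earlier results of these data known. Positions and promoters came from RefSeq (GRCm38.p6), in which 10 of 10 members matched. Some genes of the pathway and marker lists are not reported here.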

Additional observations from a re-analysis of the deposited data

Results flagged for a closer look

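In limma, the difference between arrays labelled Ath+HF+BCAA and Ath+HF itself differed between 68w and 38w for 3 of the 10 genes. These 3 were called below 0, as were 7.67% of all genes, while 12.9% of all genes were called above 0. For Apoa4 the 68w difference minus the 38w difference was -1.74 (SE 0.29, adjusted p = 0.000523), from values of -1.72 at 68w and 0.02 at 38w. For Mttp it was -0.95 (SE 0.16, adjusted p = 0.000494), from -1.07 at 68w and -0.13 at 38w. For Apoa5 it was -0.88 (SE 0.14, adjusted p = 0.000310), from -1.12 at 68w and -0.24 at 38w. At 68w all 3 arrays labelled Ath+HF+BCAA were below all 3 labelled Ath+HF for each gene, and 8 of 10 macrophage markers differed in the same test, all upward. Their part in it was not tested, and the signs rest on the labels of the 68w groups, whose exchange was not tested.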

How the results depend on the processing

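Of 29 member calls, 15 passed the threshold in every alternative run for them and 0 changed direction. The methods' analysis of variance was run for pairs of groups, but not for the change of the BCAA difference between the times. The 15 were Apoa4, Apoa5 and Mttp in the Ath+HF+BCAA 68w group against basal 38w and against Ath+HF 68w, the same 3 genes for the change of the BCAA difference between the times, Apoa2, Apoa4, Apoa5 and Apoc3 in Ath+HF 68w against Ath+HF 38w, and Apoa5 and Mttp in Ath+HF+BCAA 68w against Ath+HF+BCAA 38w. In Ath+HF 68w against basal 38w, 5 members were called, against 1 with array medians set equal, 1 after quantile normalization, 3 with the methods' analysis of variance and 3 to 4 with single arrays left out. In Ath+HF+BCAA 68w against Ath+HF 68w, the 5 calls became 3 after quantile normalization, under which 19.6% of all genes were called higher and 14.7% lower. In Ath+HF+BCAA 68w against Ath+HF+BCAA 38w, the 4 calls became 7 with the trended robust variance, 7 without dim genes and 3 to 5 with single arrays left out. Over all genes, 5978 to 6926 were called there with single arrays left out. The shares of all genes with the trended robust variance and without dim genes are not given here, so the 7 calls are not set against them. In Ath+HF+BCAA 38w against basal 38w, the 3 calls became 0 when these groups were fitted alone and 0 to 3 with single arrays left out. In Ath+HF 38w against basal 38w, the 1 call became 0 with the methods' analysis of variance and 0 to 1 with single arrays left out. Over all genes, the 1095 calls of Ath+HF+BCAA 38w against basal 38w became 322 with the groups alone and 555 to 1310 with single arrays left out. The 843 of Ath+HF 38w against basal 38w became 502 and 421 to 708. The methods' analysis of variance called 4998 genes in Ath+HF 68w against basal 38w (7603 in limma), 4892 in Ath+HF 68w against Ath+HF 38w (7503) and 201 in Ath+HF+BCAA 38w against Ath+HF 38w (0, and 0 to 1 with single arrays left out). That analysis of variance was corrected over 10 pairs of groups, not over genes. The cause of these changes was not tested, except that fitting groups alone or leaving out an array uses fewer arrays. Same-numbered arrays did not visibly deviate together (median correlation 0.003 over 30 pairs, -0.156 to 0.183, beside -0.007 over 60 other pairs). The numbers thus gave no sign of pairing, though a small shared effect could go unseen. A replicate block lost 1 member call, Apoc3 at 68w between the diets (-0.33, adjusted p = 0.0501). The members' signals near the array maximum and 3 arrays a group limit what small differences can show.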
